A study of Homo sapiens with 12 samples.

Results

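The comparison concerns H3K27ac, the acetyl mark on lysine 27 of histone H3, in the human colorectal adenocarcinoma cell lines SW620 and SW480. Its members were all regions of the H3K27ac lists that the authors called in each line, 22236 in SW620 and 23493 in SW480, together 45729 of the 262931 regions in the 10 region lists of the series. A region was taken as shared when 1 bp or more of it was also in the other line's H3K27ac list, and as line-only otherwise. The series profiled 4 histone marks and the forkhead factor FOXA2 by chromatin immunoprecipitation and sequencing (ChIP-seq), with 1 library per line and antibody. The labels describe SW480 as Dukes' type B and SW620 as Dukes' type C, a clinical stage of the tumour, and both lines were grown in DMEM with serum and received no treatment. Both are long-established cultures, so each library stands for one culture and not for a tumour. The series title sets the lines in the context of liver metastasis of colorectal cancer. Because each line had 1 H3K27ac library, differences between the lines have no replicate check, and no p-value is given.

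H3K27ac is laid down by the acetyltransferases p300 and CBP on nucleosomes that flank active promoters and enhancers. Promoters in use also carry H3K4me3, whereas enhancers carry H3K4me1 and H3K4me2 with little or no H3K4me3, so H3K4me3 is commonly used to divide acetylated regions into those at promoters and those away from them. Enhancers differ between cell types far more than promoters do, and broad acetylated stretches often lie at genes that are highly expressed in a given cell type. H3K36me3 covers the bodies of transcribed genes. FOXA2 is a pioneer factor of endoderm and liver that binds enhancers.

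The H3K27ac libraries differed in depth and in enrichment. SW620 had 47867295 tags, of which 27.5% lay in called regions, and SW480 had 34224728 tags, of which 58.5% did. The caller's threshold followed depth, at 48 tags in SW620 and 36 in SW480. The H3K4me3 libraries, used below to class the regions, had 12791745 tags in SW620 and 16400013 in SW480. The deposited lists give positions and no usable strength for a region, so width and position are what was compared. Values in parentheses after a share are 95% intervals. They reflect the counting error alone, although regions next to each other are not independent.

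Of the SW620 regions, 5966 were line-only, which is 26.8% of the list, and of the SW480 regions 7519 were, which is 32.0%. In bp, 39.2 Mb was acetylated in both lines, 70.0% of the SW620 total of 56.1 Mb and 60.8% of the SW480 total of 64.5 Mb. Line-only regions held 11.1 Mb, or 19.8% of the SW620 total, and 15.4 Mb, or 23.8% of the SW480 total. The rest of the sequence acetylated in one line lay within shared regions, in parts that the other list did not cover. The median shared SW620 region was covered over 100% of its length by the SW480 list, and the median shared SW480 region over 87.1% by the SW620 list.

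Width was closely tied to sharing in both lists. The caller was run with a region size of 1000 bp, and the narrowest regions of both lists had that width to within 1 bp. Of these narrowest regions, 35.8% (34.2 to 37.6) of 3044 in SW620 and 23% (21.3 to 24.9) of 2104 in SW480 were shared. Among wider regions of up to 3000 bp the shares were 76.0% of 13791 SW620 regions and 66.0% of 14233 SW480 regions. Between 3000 and 8000 bp they were 86.8% of 5085 and 84.9% of 6747. Above 8000 bp they were 90.8% (87.1 to 93.5) of 316 and 88.0% (84.5 to 90.8) of 409. The SW620 list was more often shared than the SW480 list in each of the 4 classes, and the intervals of the lists overlapped above 8000 bp. Line-only regions of SW620 included 32.7% of the narrowest width, against 6.71% of its shared regions. In SW480 these shares were 21.5% and 3.03%.

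The lists also differ in their make-up of widths, so shares were recomputed at equal width. For this, the share in each of 8 width bins was averaged with common weights. At matched width, 74.6% (74.1 to 75.1) of SW620 regions and 66.3% (65.8 to 66.9) of SW480 regions were shared. The difference was 8.27 percentage points (7.52 to 9.03), against 5.17 points without matching. Matching on width thus widened the difference between the lists. The called widths were themselves unlike at the same sites. In 1-to-1 pairs of overlapping regions the median width ratio, SW620 over SW480, was 0.918. Equal width therefore need not mean like sites, and the part of this in the widening was not tested. With equal numbers of the widest regions, 72.2% of SW620 and 70.7% of SW480 regions were shared, and at matched width 74.8% and 67.9%.

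Acetylated regions on H3K4me3 were far more often common to the lines than those off it, and on average this held at equal width. Here a region is on H3K4me3 when it overlaps an H3K4me3 region of its own line by at least 1 bp, as did 13317 SW620 regions and 15747 SW480 regions. These are called promoter regions below, by the mark and not by a gene annotation. Within the SW620 list at matched width, 93.0% (92.5 to 93.6) of regions on H3K4me3 and 45.0% (43.9 to 46.1) of those off it were shared. The difference was 48.0 points (46.8 to 49.2), against 55.0 points without matching. Within the SW480 list the matched shares were 77.4% (76.8 to 78.0) and 44.4% (43.3 to 45.5), a difference of 33.0 points (31.7 to 34.3), against 40.1 points without matching. Matching on width thus lowered the difference by about 7 points in either list, and most of it remained. The SW480 list showed little difference at the narrowest width. There 23.9% (21.0 to 27.1) of 760 regions on H3K4me3 were shared, and 22.5% (20.3 to 24.8) of 1344 off it. From there up to 1500 bp the SW480 shares were 40.3% and 30.7%.

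Distance from H3K4me3 mattered further among the regions off it. In SW620 the matched share fell from 51.6% (48.7 to 54.4) of the 1324 regions up to 5 kb from the nearest H3K4me3 region to 48.8% (47.3 to 50.3) of the 4444 between 5 and 50 kb. It was 36.8% (35.0 to 38.6) of the 3151 beyond 50 kb. In SW480 the matched shares were 51.8% (48.8 to 54.8) of 1096, 46.5% (45.0 to 48.0) of 4328 and 37.1% (35.0 to 39.1) of 2322. In both lists the intervals of the farthest class lay below those of the nearer classes, while the nearest 2 classes overlapped in SW620 and did not in SW480.

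The difference between the lists in their shared shares lay mainly on H3K4me3. Matched between lines, 95.3% (94.9 to 95.6) of SW620 regions and 80.9% (80.4 to 81.4) of SW480 regions on H3K4me3 were shared, 14.4 points apart (13.7 to 15.0). The numbers shared on H3K4me3 were close, at 12684 in SW620 and 12788 in SW480. The gap thus lies in the line-only counts, 633 against 2959, and does not show that SW620 sites were better kept. Off H3K4me3 the shares were 41.8% (40.8 to 42.8) and 39.6% (38.5 to 40.6), 2.23 points apart (0.80 to 3.67). Without matching, the order off H3K4me3 was the opposite, with SW620 lower by 0.925 points, so that this small difference depends on the widths.

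The gap on H3K4me3 was widest among narrow regions. At the narrowest width, 74.5% (71.2 to 77.5) of 744 SW620 regions on H3K4me3 were shared, but 23.9% (21.0 to 27.1) of 760 SW480 regions were. Among the next regions, up to 1500 bp, the shares were 87.2% and 40.3%, and between 1500 and 2000 bp 94.1% and 65.9%. Between 2000 and 3000 bp they were 98.2% and 89.2%, and in each wider bin both lists had shares between 93.2% and 97.7%. Off H3K4me3 there was no such gap among narrow regions, with 23.3% of 2300 SW620 and 22.5% of 1344 SW480 regions of the narrowest width shared. Up to 1500 bp the SW480 share was the higher, at 30.7% against 25.3%. Between 3000 and 4000 bp the SW620 share was, at 61.3% against 53.1%. Above 8000 bp the shares were 78.0% of 91 SW620 and 71.2% of 118 SW480 regions. A narrow acetylated region at a promoter was thus usually matched when it came from the SW620 list and usually unmatched when it came from the SW480 list. The SW620 H3K27ac library had the lower share of tags in regions, and its part in this result was not tested.

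**Figure D1:**
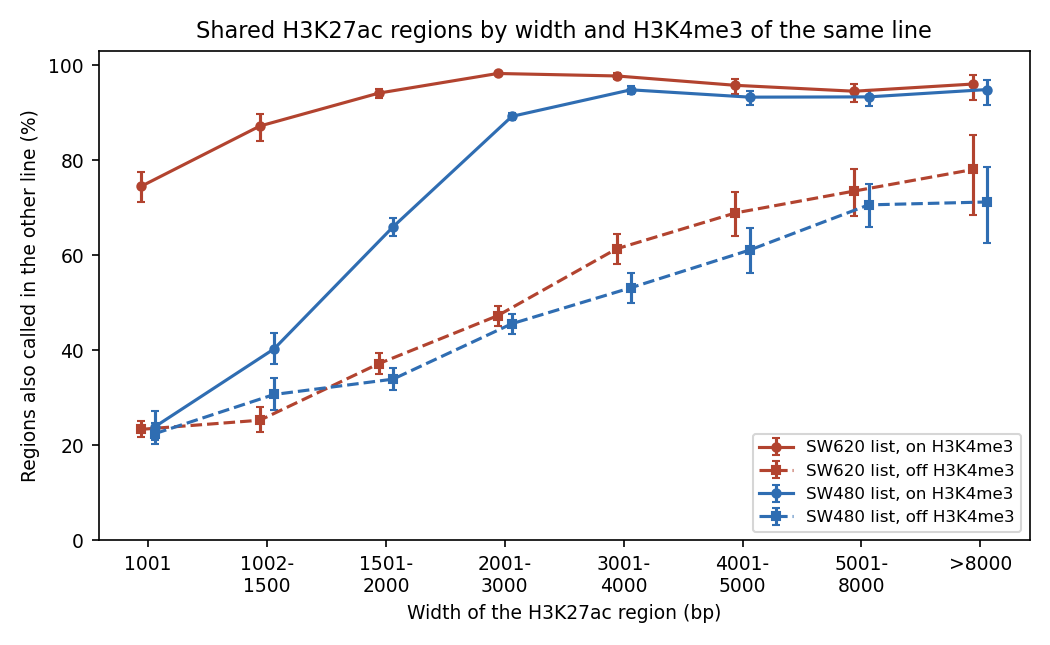
Percentage of H3K27ac regions shared with the other line (vertical axis) by region width in 8 bins (horizontal axis), on and off H3K4me3 of the same line, for the SW620 and SW480 lists, with 95% Wilson intervals as bars. On H3K4me3 the SW620 points start at 74.5% and the SW480 points at 23.9%, and they draw close in the wider bins. Off H3K4me3 both lists rise from about 23%, with SW480 higher in the bin up to 1500 bp and SW620 higher in the wider bins.

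The state of H3K4 in the other line was then read at each line-only region. Each region was given one of 3 states in each line: H3K4me3, H3K4me2 alone, or neither. At SW480-only acetylated regions SW620 often had an H3K4me2 or H3K4me3 call. Of the 7519 SW480-only regions, 52.0% (50.9 to 53.1) overlapped H3K4me2 of SW620. Of the 5966 SW620-only regions, 18.1% (17.2 to 19.1) overlapped H3K4me2 of SW480. When a shared region had to overlap by 50% of both partners, which leaves more regions line-only, these shares were 61.5% and 39.5%. The SW620 H3K4me2 list was the longer one, with 35114 regions against 31768. Under the 1 bp rule the SW480-only set also held more regions on H3K4me3, at 39.4% against 10.6%. Off H3K4me3 the shares on H3K4me2 of the other line were 28.4% and 14.6%, and on H3K4me3 88.4% and 47.9%, with SW480-only first. A site acetylated in SW620 under the caller's threshold would count as SW480-only. The SW620 H3K27ac library had the lower share of tags in regions, and its part here was not tested.

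Promoter regions were taken first. Of the 2959 SW480-only regions on H3K4me3, 1828 (61.8%, 60.0 to 63.5) were on H3K4me3 in SW620 too, 801 (27.1%) had H3K4me2 alone there and 330 (11.2%) had neither. Of the 633 SW620-only regions on H3K4me3, 216 (34.1%, 30.5 to 37.9) were on H3K4me3 in SW480, 102 (16.1%) had H3K4me2 alone there and 315 (49.8%) had neither. With either H3K4 mark counted, 88.8% of the SW480-only promoter regions and 50.2% of the SW620-only ones had a call in the other line. The 1828 SW480-only regions with H3K4me3 in both lines had a median width of 1656 bp, against 2686 bp for shared SW480 regions with H3K4me3 in both lines.

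Away from promoters, H3K4me2 in the own line and neither H3K4 mark in the other was found at 57.9% (56.6 to 59.2) of the 5333 SW620-only regions and 46.4% (45.0 to 47.9) of the 4560 SW480-only regions. The largest class of SW620-only regions, 3818 of 5966, had H3K4me2 without H3K4me3 in SW620, and 80.9% (79.6 to 82.1) of these had neither mark in SW480. The corresponding SW480-only class held 3279 regions. Of these, 64.6% (62.9 to 66.2) had neither mark in SW620 and 35.0% (33.4 to 36.7) had H3K4me2 alone there. The remaining class, 1515 SW620-only and 1281 SW480-only regions, had no H3K4 mark in its own line. Of these, 96.8% and 89.4% had none in the other line either, and the SW620 regions bare in both lines had the narrowest possible width as their median, against 1317 bp for those of SW480.

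Read the other way, the H3K4 states of both lines together went with whether an acetylated region was shared. Regions with H3K4me3 in both lines were shared in 98.3% of 12692 SW620 and 87.1% of 14212 SW480 cases. With H3K4me2 alone in both lines the shares were 78.0% (76.5 to 79.4) of 3161 and 67.1% (65.5 to 68.6) of 3489. With H3K4me2 alone in the own line and neither mark in the other they were 9.58% (8.64 to 10.6) of 3414 and 6.94% (5.97 to 8.06) of 2276. H3K27ac and H3K4 methylation both occur at active sites, so they are not independent readouts. These shares were not matched on width. Regions with H3K4me3 in both lines had median widths of 2381 bp in SW620 and 2577 bp in SW480. Those with H3K4me2 alone in the own line and neither mark in the other had 1773 and 2037 bp.

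**Figure D2:**
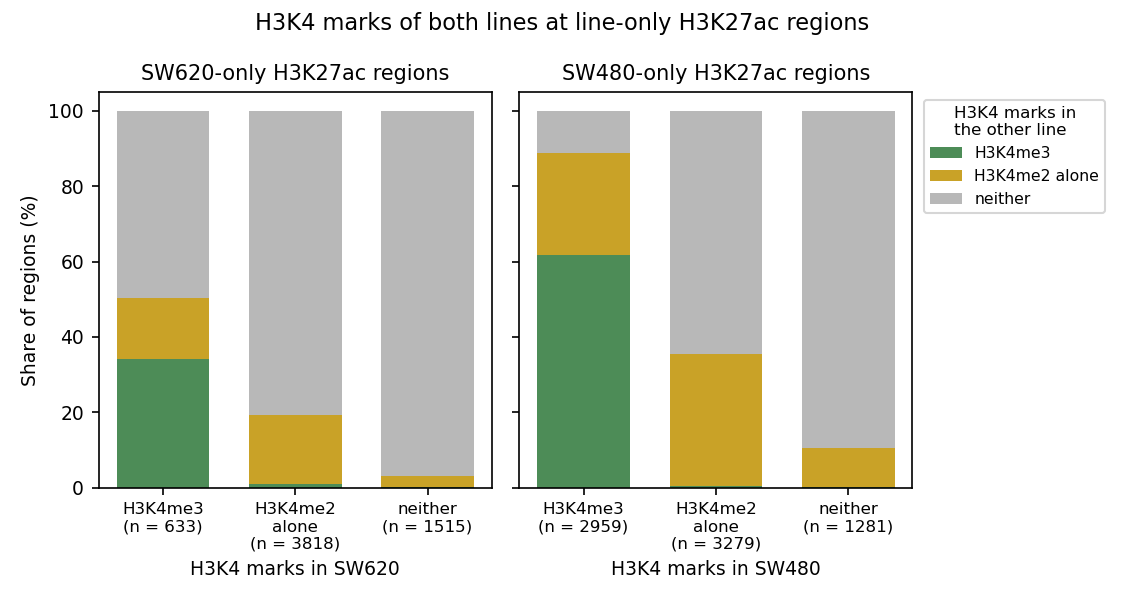
Line-only H3K27ac regions grouped by their H3K4 state in their own line, with the percentage of each group in each H3K4 state in the other line, for SW620-only and SW480-only regions. The 2959 SW480-only regions on H3K4me3 are mostly on H3K4me3 in SW620 too (61.8%), whereas 80.9% of the 3818 SW620-only regions with H3K4me2 alone have neither mark in SW480.

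H3K36me3, the mark of transcribed gene bodies, differed between line-only and shared regions at promoters. At matched width, 4.57% of SW480-only regions on H3K4me3 overlapped H3K36me3 of SW480, against 14.7% of shared ones, a difference of -10.1 points (-11.4 to -8.83). In SW620 the shares were 7.33% and 12.6%, a difference of -5.27 points (-7.95 to -2.59). Off H3K4me3 the lists went in opposite directions, with H3K36me3 on 18.3% of SW620-only regions against 15.9% of shared ones in SW620, and on 15.1% of SW480-only regions against 19% of shared ones in SW480. Acetylated promoters found in one line alone thus touched a transcribed body in their own line less often than shared ones did.

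Shared regions had nearly the same position in both lines but were on the whole wider in SW480. Of the shared regions, 98.0% in SW620 and 96.5% in SW480 overlapped a single region of the other list, and the highest number of partners was 6 and 5. There were 14898 pairs in which each region was the only partner of the other. Their median log2 width ratio, SW620 over SW480, was -0.12 with quartiles of -0.35 and 0.08, which is a median ratio of 0.918. The SW480 region was the wider in 65.3% of pairs and the SW620 region in 33.2%. A width that differed by more than 2-fold was seen in 388 pairs wider in SW620 and 801 wider in SW480. The SW480 H3K27ac library had 58.5% of its tags in regions against 27.5% in SW620. The part of this difference in the called widths was not tested.

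Promoter pairs were tightly matched and pairs away from promoters loosely so. In the 11825 pairs on H3K4me3 in both lines the centres lay a median of 23 bp apart, and 83.1% of the sequence covered by either region was covered by both. In the 2539 pairs off H3K4me3 in both lines the centres lay 137 bp apart and 60.6% of the sequence was common. The promoter pairs had a median log2 width ratio of -0.13 with quartiles of -0.32 and 0.03. The others had a median of -0.02 with quartiles of -0.57 and 0.45. Off H3K4me3 the SW480 region was wider in 51.4% of pairs and the SW620 region in 47.0%, and 326 pairs were more than 2-fold wider in SW480 against 247 in SW620. On H3K4me3 in both lines these shares were 68.8% and 29.8%, and the counts 390 and 89.

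Width went with H3K4me3 where the lines differed in it. In the 171 pairs on H3K4me3 in SW620 alone, the SW620 region was wider in 70.8%, with a median log2 ratio of 0.29. In the 363 pairs on H3K4me3 in SW480 alone, the SW480 region was wider in 68.9%, with a median log2 ratio of -0.31. A wider region has more sequence in which to meet an H3K4me3 region, and how much of this difference follows from that was not tested.

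**Figure D3:**
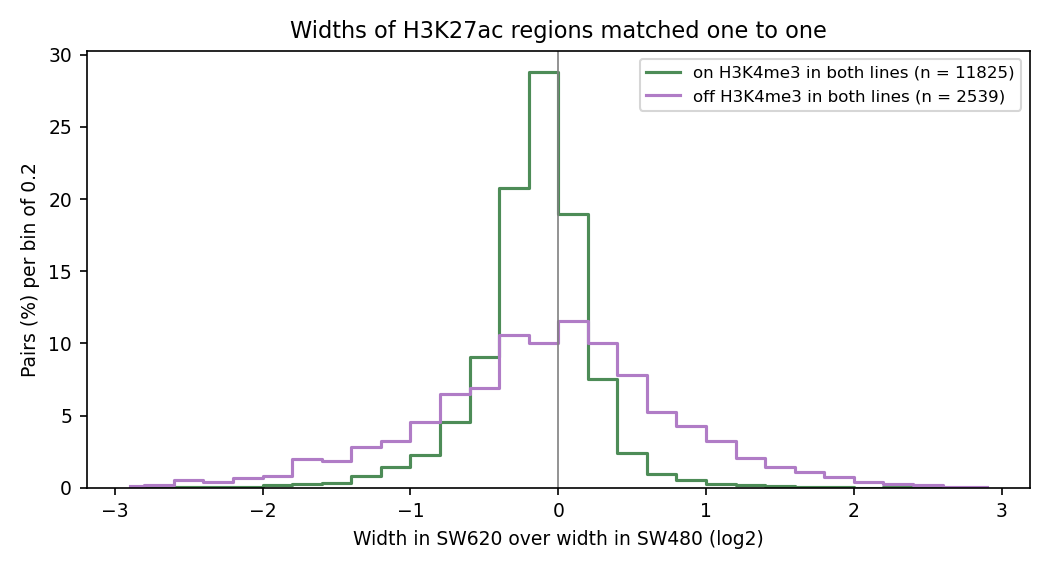
Distribution of the log2 width ratio, SW620 over SW480, over 1-to-1 pairs of shared H3K27ac regions, drawn separately for pairs on H3K4me3 in both lines and off it in both lines. The 11825 promoter pairs form a narrow peak to the left of 0 with a median of -0.13, and the 2539 other pairs form a broad one around -0.02.

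Single pairs show how far the extent of an acetylated domain could differ. The 4 pairs with the largest excess in SW620 were led by one on chromosome 7, where a SW620 region of 25.6 kb (chr7:92258370-92283998) held a single SW480 region of 1.83 kb. No H3K4me3 region of either line lay in it, but 7 H3K36me3 regions and 2 FOXA2 peaks of SW620 did, and none of SW480. On chromosome 2 a SW620 region of 17.3 kb (chr2:240122632-240139940) met 1.91 kb in SW480, and held 3 H3K4me3 regions of SW620 but 0 of SW480. A region of 15.7 kb on chromosome 12 (chr12:92526160-92541896) met 3.08 kb, and one of 13.2 kb on chromosome 2 (chr2:127846800-127860028) met 1.00 kb.

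In the other direction, a SW480 region of 19.3 kb on chromosome 1 (chr1:157101168-157120480) held a SW620 region of 2.55 kb. It had 4 H3K4me2 regions in SW480 against 1 in SW620, and 1 H3K4me3 region in each line. The next, of 17.8 kb on chromosome 8 (chr8:94879057-94896875), met 2.6 kb in SW620 and was off H3K4me3 in both lines. A region of 18.5 kb on chromosome 17 (chr17:63503661-63522161) met 4.2 kb in SW620 and was on H3K4me3 in SW480 alone, as was one of 17.4 kb on chromosome 16 (chr16:69428985-69446401), which met 3.27 kb. The 1-to-1 pairs with the largest summed width, a choice that needs both partners to be wide, were led by a pair on chromosome 8 of 29.4 kb in SW620 and 29.1 kb in SW480. It had 98.9% of its sequence in common and 3 H3K4me3 regions in each line. On chromosome 11 (chr11:69630545-69651371) the widths were 20.8 and 19.1 kb, with 91.4% in common. On chromosome 12 (chr12:53291549-53310747) they were 19.2 and 15.9 kb, with 83.0% in common. Over all 233 pairs with a wider partner above 8000 bp the median sequence in common was 60.4%, against 80.0% over all pairs. Of the 100 widest SW620 regions, 92 overlapped some SW480 region and 32 overlapped one of the 100 widest SW480 regions. Among the 1000 widest, 88.8% overlapped some SW480 region and 43.7% one of the 1000 widest.

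FOXA2 peaks of SW620 were compared between SW620-only and shared acetylated regions off H3K4me3, since wide regions have more room for a peak. Without matching, 26.5% of the 5333 SW620-only regions and 29.9% of the 3586 shared regions held a peak, a difference of -3.38 points. At matched width the order was the opposite, at 30.1% (28.8 to 31.4) for SW620-only regions against 24.9% (23.5 to 26.3) for those shared, a difference of 5.23 points (3.37 to 7.10). Matched on list order in place of width, the difference was 7.91 points. SW480-only regions held a SW620 FOXA2 peak in 7.87% (7.08 to 8.66) of cases at matched width. Per Mb of acetylated sequence SW620-only regions held 149 SW620 peaks, shared regions 121 and SW480-only regions 37.1.

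The share rose steeply with width in SW620-only and shared regions alike. At the narrowest width, a peak was held by 15.4% of SW620-only regions, 11.4% of shared regions and 6.43% of SW480-only regions. Up to 3000 bp the shares were 28.1%, 24.4% and 7.22%, and between 3000 and 8000 bp 51.4%, 45.9% and 11.2%. Above 8000 bp they were 75% of 20, 77.5% of 71 and 14.7% of 34, where the first 2 cannot be told apart at these numbers. In each of the 4 classes the SW620-only and shared regions stood above the SW480-only ones.

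On H3K4me3 the division was larger. At matched width, 29.6% (25 to 34.2) of the 633 SW620-only regions on H3K4me3 held a SW620 FOXA2 peak, against 9.91% (9.42 to 10.4) of the 12684 shared regions. For the 2959 SW480-only regions the share was 6.26% (5.08 to 7.44). FOXA2 peaks of SW480 were rare in every class off H3K4me3, at 0.413% of SW620-only regions, 1.37% of shared SW620 regions and 1.49% of SW480-only regions. The SW480 FOXA2 list had 5207 peaks from a library with 0.590% of its tags in peaks, against 12372 peaks and 2.25% in SW620. A low share in SW480 therefore cannot be told apart from a weak library. The SW480 peaks were also narrower, at a median of 127 bp against 319 bp in SW620.

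**Figure D4:**
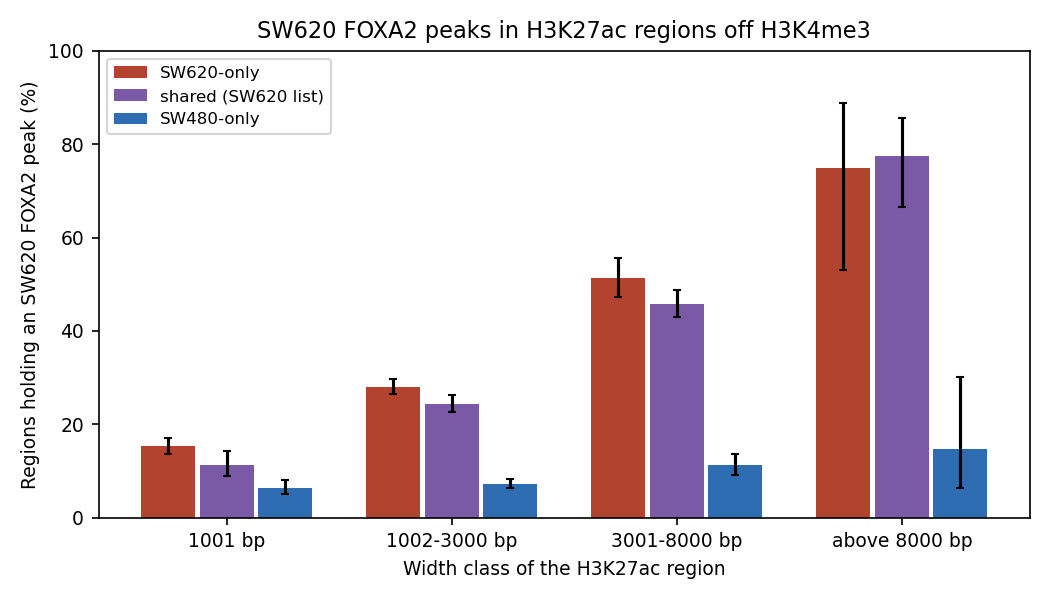
Percentage of H3K27ac regions off H3K4me3 that hold a SW620 FOXA2 peak (vertical axis) in 4 width classes (horizontal axis), for SW620-only, shared and SW480-only regions, with 95% Wilson intervals. SW620-only and shared regions rise together from 15.4% and 11.4% to 75% and 77.5%, while SW480-only regions stay between 6.43% and 14.7%.

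Single line-only regions away from H3K4me3 were described by width. Regions with no H3K4me3 of either line within 1 kb and no H3K27ac of the other line within 5 kb numbered 4061 in SW620 and 3664 in SW480. The 6 widest SW620 ones were 10.3 to 16.3 kb wide. All 6 held H3K4me2 of SW620 and none held H3K4me2 of SW480. Of these, 3 lay together on chromosome 12 between 76048562 and 76121948, and 2 of the 3 overlap each other. H3K4me2 of SW620 covered 19.5%, 20% and 29.4% of the widest 3 of the 6 and 32.4% of the fifth. The other 2 had more: a region of 11.0 kb on chromosome 15 (chr15:67033940-67044900) had H3K4me2 over 62.0% and H3K36me3 over 33.5% of its length in SW620. A region of 10.3 kb on chromosome 6 (chr6:20693407-20703701) had H3K4me2 over 81.2%.

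The 6 widest SW480 regions of this kind were 11.2 to 17.5 kb wide. The widest, on chromosome 18 (chr18:10165350-10182888), had no H3K4me2 in either line. A region of 12.3 kb on chromosome 1 (chr1:219956265-219968525) also lacked H3K4me2 in both lines but had H3K36me3 over 49.6% of its length in SW480. Of the other 4, all held H3K4me2 of SW480, over 79.5% of the length of a region on chromosome 5 (chr5:141815886-141827126), and 2 held H3K4me2 of SW620.

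H3K4me3 was on 216 SW620-only and 1828 SW480-only regions in both lines, and the 4 widest of each are described here. They were chosen for their width in the acetylated line and do not stand for the rest. On chromosome 12 a SW480-only region of 7.62 kb (chr12:4377438-4385052) had H3K4me3 over 96.9% of its length in SW480 and 13.2% in SW620. On chromosome 7 one of 8.82 kb (chr7:155297722-155306544) had 80.5% and 26.6%, and on chromosome 12 one of 9.93 kb (chr12:8081681-8091607) had 63.8% and 30.5%. The last, of 7.82 kb on chromosome 11 (chr11:36393422-36401244), had 42.4% and 23%. Of the SW620-only regions, one of 7.32 kb on chromosome 3 (chr3:8539176-8546490) had H3K4me3 over 42.5% in SW620 and 13.7% in SW480, and another of 5.28 kb on the same chromosome (chr3:25467050-25472328) had 61.8% and 23.8%. One of 7.12 kb on chromosome 4 (chr4:8724379-8731499) had 45.5% and 17.7%, and the contrast was smallest in one of 4.58 kb on chromosome 8, with 27.3% and 21.9%. In these 8 regions the H3K4me3 cover was higher in the acetylated line, and no region of the other line's H3K27ac list lay within 3 kb.

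Line-only regions were mostly not flanks of acetylated regions of the other line. In SW620, 302 of the line-only regions (5.06%) lay within 1 kb of a SW480 region, and 17.2% lay more than 100 kb from one. In SW480 the shares were 2.65% (199 regions) and 21.3%. The median gap was 20.3 kb in SW620 and 28.5 kb in SW480.

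Many line-only regions followed one another along the chromosome with no acetylated region of the other line between them. In SW620, 36.5% of line-only regions stood in runs of 3 or more and 41.5% stood alone, and in SW480 39.0% and 37.5% did. Runs of 10 or more numbered 19 in SW620 and 12 in SW480. The longest, on chromosome 12 (chr12:92211324-92524863), held 30 SW620 regions and no SW480 region over 314 kb, of which 104 kb was acetylated. It also held 36 H3K4me2 regions, 9 H3K36me3 regions and 13 FOXA2 peaks of SW620, against 1, 0 and 1 of SW480. It ends just before the region of 15.7 kb on the same chromosome described above as far wider in SW620.

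The next runs in SW620 were 22 regions on chromosome 3 (chr3:76619073-78969763) and 17 on chromosome 13 (chr13:64652171-72201902). The first held 23 H3K36me3 regions of SW620 and none of SW480, and 27 H3K4me2 regions against 2. The second was sparse, with 30.9 kb acetylated over 7550 kb, 19 H3K4me2 regions against 4, and no H3K36me3 region of either line. FOXA2 peaks were one-sided in the run on chromosome 3, with 8 of SW620 against 1 of SW480. On chromosome 13 they were not, with 13 against 10. In SW480 the longest runs were 21 regions on chromosome 19 (chr19:43244592-43772354), 15 on chromosome 2 (chr2:234933158-235373554) and 12 on chromosome 12 (chr12:116796060-117101679). H3K4me2 was less one-sided there, with 9, 16 and 14 regions of SW480 against 3, 7 and 7 of SW620. Only the last held H3K36me3, with 6 regions of SW480 and none of SW620.

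The share of line-only regions differed between chromosomes, from 12.8% on chromosome 19 to 38.8% on chromosome 13 in SW620 and from 27.3% on chromosome 17 to 37.6% on chromosome 18 in SW480. Chromosomes differ in the width of their regions and in how many are at promoters, so the observed number was set against that expected from the whole list within each width bin and H3K4me3 class. Chromosome 19 of SW620 had 151 line-only regions of 1178, against 217 expected, a ratio of 0.697 (0.607 to 0.788). It was the only chromosome in either list whose interval lay wholly below 0.8 or above the inverse of 0.8. In SW480 the ratio of chromosome 19 was 0.968 (0.899 to 1.04). Chromosome 13 of SW620 had 198 of 510, a ratio of 1.22 (1.12 to 1.32), and in SW480 0.951 (0.833 to 1.07).

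Elsewhere the ratios were closer to 1. Of the 23 chromosomes other than Y, 15 in SW620 and 21 in SW480 were within 10% of 1. Intervals above 1 were found on chromosomes 3, 4, 5, 7, 13 and X in SW620 and on 2, 11, 20 and X in SW480. They lay below 1 on chromosomes 1, 17 and 19 in SW620 and on 9, 16 and 17 in SW480. Chromosome 17 was thus below 1 in both lists, with ratios of 0.831 (0.766 to 0.897) for SW620 and 0.913 (0.848 to 0.979) for SW480.

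**Figure D5:**
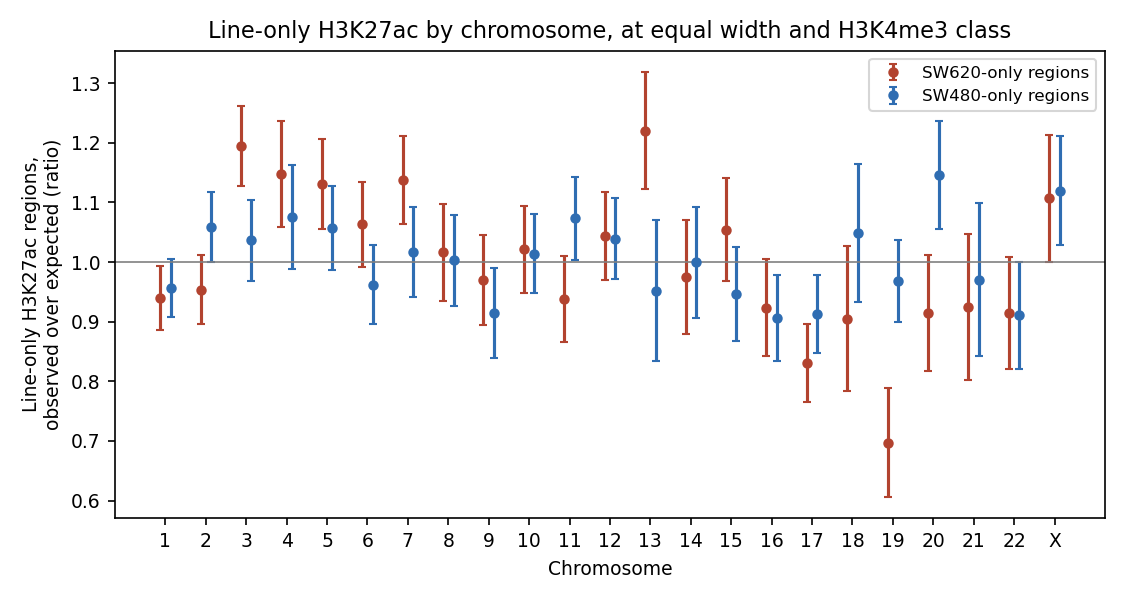
Ratio of observed to expected line-only H3K27ac regions by chromosome in the SW620 and SW480 lists, where the expected number takes account of width and H3K4me3, with 95% intervals. Chromosome 19 of SW620 stands lowest at 0.697 and chromosome 13 of SW620 highest at 1.22, while SW480 ratios run from 0.906 to 1.15.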

How the data were processed

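ChIP-seq regions of 2 cell lines were used as the authors deposited them. Regions were called per library with HOMER findPeaks against the line's input, per the file headers, in the histone style with a size of 1000 bp, at least 4-fold over input and local signal, and a false discovery rate of 0.001. Per the submitters' processing notes the build is hg19. No source used here names the aligner or the version of HOMER. The deposited score is 1 in every row and was not used. Coordinates are counted from 1.

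Overlaps came from Python 3.11.15 (pandas 2.3.3, numpy 2.4.6), equalled those of bedtools 2.31.1, and were tested on simulated regions. Matching used 8 width bins (the narrowest width, then up to 1500, 2000, 3000, 4000, 5000, 8000 bp and above), with the widths of both compared sets as weights. Intervals of plain shares are 95% Wilson intervals. Figures used matplotlib 3.10.9. Lines were compared with no test.

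The members, lists and comparisons were chosen with earlier results of these data known. The rule for named regions took the 6 widest line-only regions away from H3K4me3, the 4 widest line-only regions with H3K4me3 in both lines, the 4 pairs with the largest width difference per direction, the 4 widest pairs, the 3 longest runs per direction and chromosomes with a ratio interval below 0.8 or above its inverse. Some of those are summarised without coordinates. No genome or gene annotation of hg19 was used, so genes and sequences were not analysed here.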

Additional observations from a re-analysis of the deposited data

How the results depend on the processing

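Of the 74 values recomputed under other settings, 27 moved by less than their interval or spread, 46 moved further and 1 changed direction. Shared shares, with SW620 first, were 61.6% and 58.3% when 50% of both regions had to overlap, 74.5% and 68.8% when regions within 1 kb counted, 72.2% and 70.7% with the lists cut to equal length by width, 74.6% and 68.8% with regions within 1 kb merged first, and 77.6% and 68.8% without regions of the narrowest width. The width-matched shares were 63.3% and 56.7% at 50% overlap, 75.8% and 67.2% within 1 kb, 75.8% and 67.4% after merging, 78.1% and 68.2% without the narrowest, 75.9% and 68.0% with the weights of the SW480 list, and for SW480 67.9% with equal numbers. SW620 stayed the higher list in each of these settings.

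The matched difference between regions on and off H3K4me3 was 51.8 and 40.6 points at 50% overlap, 49.7 and 37.4 without the narrowest, 50.2 and 34.7 with H3K4me3 of either line within 1 kb, and 49.5 and 28.5 with the weights of regions off H3K4me3. It was 46.0 points for SW620 within 1 kb. Matched on list order, chosen after seeing the data, it was 42.0 and 22.3, and with no matching 55.0 and 40.1. At 50% overlap the ratio was 0.841 on chromosome 19 and 1.08 on chromosome 13 of SW620. The share of line-only regions on H3K4me2 of the other line was 39.5% and 61.5% at 50% overlap, and 12.2% and 44.1% when H3K4me2 had to meet 50% of the region. The FOXA2 difference was 7.91 points matched on list order and turned to -3.38 with no matching, both chosen after seeing the data. The median width ratio was 0.923 without the narrowest and 0.903 with all partners summed. The share in runs of 3 or more was 32.0% and 36.7% at 50% overlap, and 31.5% for SW620 without the narrowest. Causes were not tested. No paired analysis was possible because each line had 1 library per antibody.

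Line-only describes the lists, since a region absent from one list can still carry signal under the caller's threshold. Class on or off H3K4me3 rests on H3K4me3 libraries of 12791745 and 16400013 tags, and a missed call there moves a region off H3K4me3. The depth of single regions is unknown.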
